A study of Mus musculus with 8 samples.

Results

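The 54 genes described here drive or carry out the G2 and M phases of the cell cycle. They are cyclins, mitotic kinases, kinesins, centromere and spindle checkpoint genes, condensins and genes of cytokinesis. They were taken by symbol from the deposited table of 21692 genes, each symbol matched 1 row, and all 54 passed the filter on low counts, as did 15517 genes in all. RNA came from forelimb buds of CD1 mouse embryos, collected on gestation day 13 and kept in culture for 24 h. The vehicle group (4 libraries, vehicle 1 to 4) received dimethyl sulfoxide, and the OPE group (4 libraries, OPE 1 to 4) received a mixture of organophosphate esters at a dilution of 1 in 300000. Organophosphate esters are flame retardants and plasticisers, and this mixture was composed after Canadian house dust. A cultured bud holds cartilage, mesenchyme, muscle, vessels, skin and blood cells together. Nothing in the labels ties a replicate to its own litter or culture, and the p-values here cover just the spread among these libraries, which may be technical.

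In a cycling cell, genes of mitosis are transcribed late, from S phase into G2, and are silent in cells that have left the cycle. CDK1 bound to cyclin B starts mitosis, kinesins and other microtubule proteins build the spindle, and kinetochores tie chromosomes to it. The spindle checkpoint holds back the anaphase-promoting complex until every chromosome is attached, and the complex then destroys cyclin B. In the limb bud these genes mark the dividing mesenchyme and the proliferating chondrocytes that lengthen the cartilage before it turns to bone.

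The libraries held 14986793 to 22006738 reads counted to genes. The forelimb factor Tbx5 lay between 268.7 and 321 CPM (counts scaled to library size and composition) in all 8 libraries, while Tbx4, which marks the hindlimb, lay between 21.1 and 28.7 and Pitx1 between 2.53 and 4.44. A principal component analysis set OPE 3 apart on its first axis and OPE 1 on its second. In OPE 3 the share of reads on genes of ribosomal proteins was 9.13%, against 4.58% to 5.87% elsewhere. OPE 3 also had fewer reads on long genes, with a slope of log2 CPM on log2 gene length of -0.214 against -0.0306 to 0.0989 elsewhere.

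Most of the mitosis genes were lower with OPE. Of the 54 genes, 53 had a log2 fold change below 0, against 47.2% of all genes tested, and the median was -0.45, against 0.01 over all genes tested. In 37 of them every OPE library lay below every vehicle library, which was true of 5.44% of all genes tested, and in none of them did every OPE library lie above (4.05% of all genes tested). The test over all genes (edgeR quasi-likelihood, Benjamini-Hochberg adjusted p under 0.05) passed 5 as lower and none as higher. Of all genes tested 0.477% passed, 0.438% as lower and 0.0387% as higher. At an unadjusted p under 0.05, 44 of the 54 were lower and none higher, against 7.31% of all genes tested lower and 13.2% in either direction. Cdc25b was the 1 gene above 0. In a whole bud, fewer dividing cells and less of these transcripts per cell cannot be told apart.

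**Figure D1:**
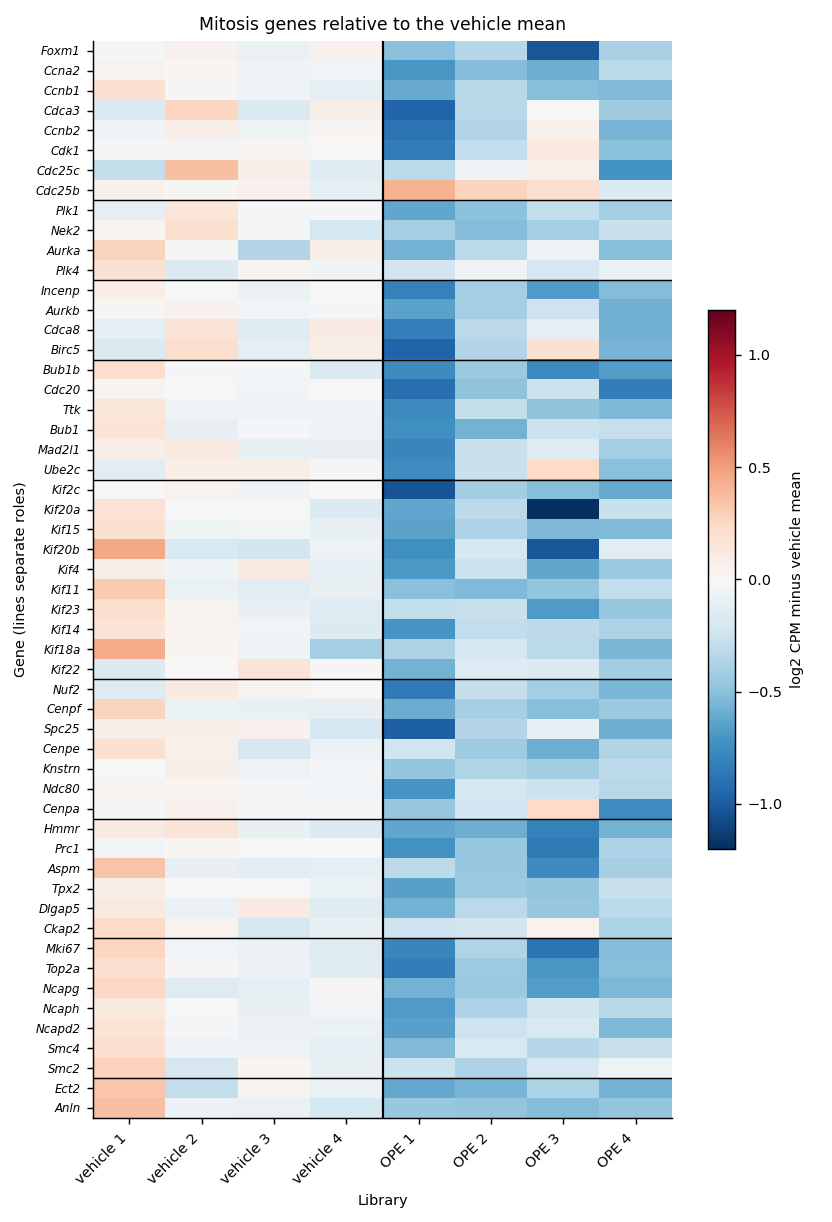
Heat map of log2 CPM minus the vehicle mean for the 54 genes (rows, grouped by role) in the 8 libraries (columns). Blue is below and red above the vehicle mean: OPE 1 has the lowest median at -0.64, and OPE 3 holds both dark blue genes, such as Kif20a and Foxm1, and genes above 0, such as Cenpa and Ube2c.

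The summed level of the 54 genes was 2299, 2122, 2042 and 2005 CPM in vehicle 1 to 4 and 1383, 1666, 1625 and 1561 CPM in OPE 1 to 4. The sums of the 2 groups did not overlap. Relative to the vehicle mean, the median over the genes was -0.64, -0.35, -0.39 and -0.45 (log2) in OPE 1 to 4 and between -0.07 and 0.11 in the vehicle libraries. OPE 1 was the lowest of all 8 libraries for 34 of the genes, OPE 3 for 12, OPE 4 for 5 and OPE 2 for 3. At the other end vehicle 1 was the highest for 33. After the group means were removed, the mean correlation between pairs of the genes over the 8 libraries was 0.287. Between pairs of all genes tested it was 0.00137. With both groups pooled, the mitosis genes thus also varied together within groups. The part of gene length in this was not tested.

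Their levels per length spanned a wide range. In vehicle libraries the deposited FPKM (reads scaled to gene length and depth) was highest for Top2a (34.4 ± 3.43, SD, n = 4), Cenpa (31.1 ± 0.831), Ube2c (25.5 ± 1.77) and Cdc20 (23.6 ± 0.434). Cenpa lay within 1 SD of Top2a. The lowest were Kif18a (1.44 ± 0.349) and Kif14 (1.63 ± 0.146). Across the 54 genes the fold change had a rank correlation of 0.134 with the vehicle level per length and -0.262 with gene length. Over all genes tested the correlation with gene length was -0.211. These are descriptions, because the genes share the same libraries.

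Promoters of mitosis genes are known to carry the cell cycle homology region, TTTGAA or a close variant, which recruits the DREAM and MuvB complexes, and CCAAT boxes bound by NF-Y. RefSeq promoter windows (GRCm38.p6, 250 bases before to 50 after the start) were found for 45 of the 54 genes, 47 windows in all. TTTGAA, searched on both strands, was in 35 of the 47 windows (74.5%) and in 17.9% of all 32851 windows. TTCGAA, which reads the same on both strands, was in 4 of 47 (8.51%) and in 1.56% of all. CCAAT on either strand was in 35 of 47 (74.5%) and in 37.4% of all. At least 1 of the first pair lay within 50 bases of the start in 32 of 47 windows (68.1%), against 5.31% of all windows. The median log2 fold change was -0.48 for the 33 genes with TTTGAA and -0.40 for the 12 without. These matches are letters in a window, with no measure of binding.

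Stretches from 130 bases before to 20 after the start show how the letters are spaced. The first 3 belong to genes that passed the test, the next 3 to core cell cycle genes with TTTGAA near the start, and the last 2 to Plk4 and Cdc25b, which had fold changes nearest to 0 or above it. Capitals mark TTTGAA (or TTCAAA, its reverse), TTCGAA, and CCAAT (or ATTGG, its reverse).
Top2a, chr11:99024170-99024319, minus strand: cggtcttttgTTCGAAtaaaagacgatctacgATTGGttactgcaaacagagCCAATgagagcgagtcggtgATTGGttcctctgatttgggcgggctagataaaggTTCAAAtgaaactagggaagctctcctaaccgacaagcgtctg
Hmmr, chr11:40733418-40733567, minus strand: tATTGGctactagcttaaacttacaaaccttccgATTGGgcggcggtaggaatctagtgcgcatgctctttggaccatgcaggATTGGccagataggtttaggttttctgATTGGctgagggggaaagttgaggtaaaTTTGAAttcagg
Bub1b, chr2:118598081-118598230, plus strand: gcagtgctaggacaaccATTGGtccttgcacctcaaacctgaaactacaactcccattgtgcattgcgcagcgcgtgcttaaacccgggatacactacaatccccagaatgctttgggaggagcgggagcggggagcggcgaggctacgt
Cdk1, chr10:69352893-69353042, minus strand: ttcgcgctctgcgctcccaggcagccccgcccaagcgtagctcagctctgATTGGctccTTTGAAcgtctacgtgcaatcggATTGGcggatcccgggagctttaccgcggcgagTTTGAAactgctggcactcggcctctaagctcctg
Ccnb2, chr9:70421535-70421684, minus strand: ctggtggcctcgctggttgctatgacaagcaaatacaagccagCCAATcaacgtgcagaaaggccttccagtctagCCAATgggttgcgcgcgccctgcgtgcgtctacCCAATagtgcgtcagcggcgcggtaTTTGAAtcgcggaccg
Cdc20, chr4:118437324-118437473, minus strand: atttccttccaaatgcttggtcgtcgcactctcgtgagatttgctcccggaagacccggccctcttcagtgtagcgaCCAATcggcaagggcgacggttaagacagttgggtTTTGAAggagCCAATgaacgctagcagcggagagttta
Plk4, chr3:40799821-40799970, plus strand: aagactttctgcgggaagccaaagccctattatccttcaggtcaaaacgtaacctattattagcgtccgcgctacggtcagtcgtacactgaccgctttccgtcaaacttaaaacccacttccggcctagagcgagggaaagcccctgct
Cdc25b, chr2:131186818-131186967, plus strand: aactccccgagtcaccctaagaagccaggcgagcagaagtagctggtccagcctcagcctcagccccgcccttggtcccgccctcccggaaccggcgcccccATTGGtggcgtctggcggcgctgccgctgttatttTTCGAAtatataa

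Ccnb2 shows 3 CCAAT boxes followed by TTTGAA that begins 5 bases after the start, and Cdk1 has ATTGG and TTTGAA each more than once. In Bub1b the TTTGAA lies at base 41 after the start, beyond the printed stretch. Plk4 has none of the searched letters in its whole window. Cdc25b has TTCGAA at base 8 after the start and 1 ATTGG, although its RNA was not lower.

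The test passed 5 genes that fell past the threshold over all genes. Top2a, on chromosome 11 (98992943 to 99024189, mm10), encodes topoisomerase II alpha, which untangles sister DNA before chromosomes part. Its level was 202, 178, 168 and 159 CPM in vehicle 1 to 4 and 98.8, 130.2, 108.5 and 123 CPM in OPE 1 to 4. The groups were separate, OPE 1 was the lowest, and the log2 fold change was -0.62 ± 0.11 (SE, adjusted p = 0.0451).

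Hmmr encodes a microtubule-binding protein of the spindle that also binds hyaluronan, a matrix sugar. It read 28.3, 29.4, 24.7 and 23.3 CPM with vehicle and 17.0, 17.5, 14.9 and 17.7 CPM with OPE. Every OPE library was below the vehicle range, and the fall was -0.65 ± 0.12 on the log2 scale (adjusted p = 0.0389). Bub1b, the checkpoint protein BUBR1, had the lowest fold change of the 54 at -0.66 ± 0.12 (adjusted p = 0.0388). It read 46.2, 39.4, 39.3 and 35.3 CPM with vehicle and 23.5, 29.3, 23.4 and 25.2 CPM with OPE. OPE 2 was the highest OPE library and still below vehicle 4, the lowest with vehicle.

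Incenp encodes the scaffold of the chromosomal passenger complex, which corrects faulty attachments. Its level was 60.2, 57.0, 54.05 and 57.0 CPM with vehicle and 32.4, 42.9, 35.7 and 39.6 CPM with OPE, a log2 fold change of -0.60 ± 0.10 (adjusted p = 0.0388). Ccna2, the cyclin A2 of S phase and G2, read 57.5, 56.7, 54.2 and 54.3 CPM with vehicle and 34.3, 38.8, 37.0 and 44.5 CPM with OPE. Both genes varied little among the vehicle libraries and were low in every OPE library. The fold change of Ccna2 was -0.53 ± 0.10 (adjusted p = 0.0453), and its value is uncertain to the extent that Exosc9 overlaps it on the other strand over 864 bases, with reads amounting to 42.5% of its own.

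**Figure D2:**
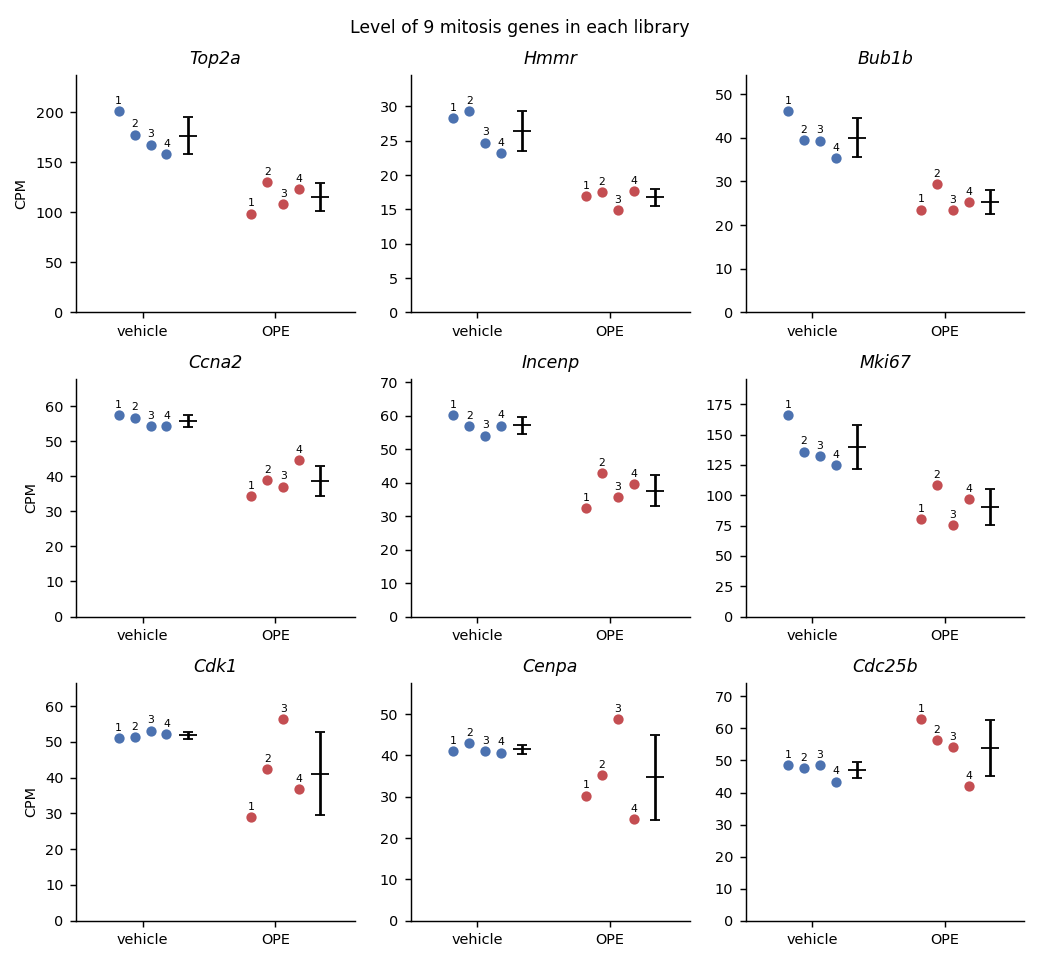
CPM of 9 mitosis genes in each library (points, numbered by replicate) with the mean and SD of 4 libraries beside them (black). Top2a, Hmmr, Bub1b, Ccna2, Incenp and Mki67 show separate groups, Cdk1 and Cenpa overlap because OPE 3 reads 56.3 and 48.8 CPM, and Cdc25b is higher in 3 of 4 OPE libraries.

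These 5 calls depended on the libraries used. Without vehicle 1, 2, 3 or 4, and without OPE 1 or OPE 2, none of the 54 passed, although 40 to 43 still had an unadjusted p under 0.05 and a lower level. Without OPE 3 the count was 27, against 1.43% of all genes tested passing as lower in that fit. Without OPE 4 it was 7 (0.823% of all genes), and without both OPE 1 and OPE 3 it was 2, Incenp and Cdc20 (0.388% of all genes). With DESeq2 it was 27, where 2.31% of all genes tested passed as lower. According to the authors' deposited table, 26 of the 54 had an adjusted p under 0.05, all lower, against 1.8% of the genes with an adjusted p there. In each of these fits 53 genes were below 0. The fits share most of their libraries, and genes with separate groups keep their direction when libraries are left out.

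The counts by role, here and below, are to be read against the shares of all genes tested. Those were 0.438% passing as lower with edgeR, 7.31% lower at an unadjusted p under 0.05, and 2.31% passing as lower with DESeq2. Among 8 cyclins, CDK1 and its activators, Ccna2 passed (5 lower at an unadjusted p under 0.05, 3 with DESeq2). Ccnb1, cyclin B1, read 41.5 to 51.2 CPM with vehicle and 29.6 to 35.7 CPM with OPE, with a log2 fold change of -0.50 ± 0.10 (adjusted p = 0.061). Processed pseudogenes share sequence with it, so its count is uncertain. Foxm1, the transcription factor that switches on late cell cycle genes, gave -0.54 ± 0.14 (adjusted p = 0.108), with 49.6 to 54.4 CPM against 25.7 to 41.3 CPM and the lowest value in OPE 3.

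Within the same group 3 genes were split among the OPE libraries. Cdk1, the kinase itself, read 51.0, 51.2, 53.2 and 52.2 CPM with vehicle and 28.9, 42.3, 56.3 and 36.8 CPM with OPE. OPE 3 was above every vehicle library while the other OPE libraries were below them all, and the fold change was -0.34 ± 0.17 (adjusted p = 0.417). Ccnb2, cyclin B2, read 14.8, 21.4, 28.4 and 18.6 CPM in OPE 1 to 4 against 26.4 to 29.1 CPM with vehicle. Cdca3, which helps remove the CDK1 inhibitor WEE1, read 14.45, 22.4, 28.1 and 21.0 CPM against 25.1 to 33.8 CPM, so that OPE 3 again lay inside the vehicle range.

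The CDC25 phosphatases, which remove the inhibitory phosphates from CDK1, had fold changes whose intervals included 0. Cdc25b read 48.5, 47.5, 48.6 and 43.4 CPM with vehicle and 62.9, 56.4, 54.1 and 42.0 CPM with OPE. It was above the vehicle range in OPE 1, 2 and 3 and below it in OPE 4, with a log2 fold change of 0.20 (95% interval -0.06 to 0.46, adjusted p = 0.525). Spef1 overlaps Cdc25b on the other strand, with reads amounting to 55.4% of its own. Cdc25c gave -0.25 (95% interval -0.68 to 0.18) at 7.06 to 15.0 CPM, with the groups overlapping.

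None of the 4 mitotic kinases of this group passed, and 3 of them had an unadjusted p under 0.05; DESeq2 passed 1. Plk1, the kinase of mitotic entry and exit, read 33.1 to 39.7 CPM with vehicle and 23.3 to 29.1 CPM with OPE (-0.46 ± 0.10, adjusted p = 0.0877). Nek2, which splits the centrosomes, read 14.0 to 18.6 against 11.3 to 13.5 CPM. Aurka, the spindle pole kinase, overlapped between groups at -0.37 ± 0.15. Plk4 duplicates centrioles earlier in the cycle and gave -0.14 (95% interval -0.38 to 0.10), with all 8 libraries between 20.7 and 27.5 CPM.

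In the chromosomal passenger complex Incenp passed and the other 3 genes did not. At an unadjusted p under 0.05, 3 of the 4 genes of the complex were lower, and DESeq2 passed 2. Aurkb, its kinase, was separate between groups at 26.6 to 28.2 against 17.4 to 23.0 CPM (-0.46 ± 0.11, adjusted p = 0.0959). Birc5 (survivin) and Cdca8 (borealin), which carry the complex to the centromere, overlapped. Birc5 read 33.5, 43.7, 34.7 and 39.6 CPM with vehicle and 19.3, 29.4, 42.7 and 25.6 CPM with OPE. For both genes OPE 3 lay within the vehicle range and the other OPE libraries below it.

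Of the 6 genes of the spindle checkpoint and the anaphase-promoting complex, Bub1b passed (5 lower at an unadjusted p under 0.05, 4 with DESeq2). Cdc20, which activates the complex, was steady with vehicle at 40.6 to 42.6 CPM and read 22.2, 29.7, 34.7 and 23.4 CPM in OPE 1 to 4 (-0.60 ± 0.14, adjusted p = 0.0877). Ttk and Bub1, checkpoint kinases at the kinetochore, gave -0.52 ± 0.13 and -0.45 ± 0.13, and Mad2l1, which binds CDC20, gave -0.39 ± 0.14. All of these were separate between groups. Ube2c, which supplies ubiquitin to the complex, read 50.01 to 57.9 CPM with vehicle and 32.5, 45.5, 64.6 and 38.7 CPM with OPE, the highest of all 8 libraries being OPE 3.

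None of the 10 kinesins passed over all genes. Lower with an unadjusted p under 0.05 were 9 (7.31% of all genes tested), and DESeq2 passed 4 (2.31%). Kif2c, which takes microtubules apart at centromeres, was the lowest at -0.63 ± 0.14 (adjusted p = 0.0698), with 24.2 to 25.6 CPM against 12.05 to 18.6 CPM. Kif15 and Kif11, motors that push spindle poles apart, gave -0.52 ± 0.11 and -0.46 ± 0.12 (adjusted p = 0.0639 and 0.124). Kif4, a chromosome-bound motor encoded on the X chromosome, gave -0.50 ± 0.12.

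The other kinesins gave -0.57 to -0.33. Kif20a, which brings the passenger complex to the midzone, read 17.1, 21.2, 11.2 and 21.8 CPM with OPE and 23.4 to 29.6 CPM with vehicle, but Cdc23 overlaps it on the other strand with 566% of its reads. Kif23, of the centralspindlin complex, and Kif14, of the midbody, gave -0.42 ± 0.12 and -0.42 ± 0.14 and were separate between groups. Kif20b, Kif18a and Kif22 overlapped between groups, at -0.50 ± 0.22, -0.39 ± 0.18 and -0.33 ± 0.12.

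The 7 centromere and kinetochore genes had a median of -0.40, and none passed (6 at an unadjusted p under 0.05, 3 with DESeq2). Cenpf, a large protein of the outer kinetochore, read 40.3 to 51.9 CPM with vehicle and 28.6 to 32.7 CPM with OPE (-0.50 ± 0.11, adjusted p = 0.073). Nuf2 and Ndc80, partners in the complex that grips microtubules, gave -0.52 ± 0.14 and -0.37 ± 0.13, and Spc25 of the same complex gave -0.48 ± 0.17. Cenpe, the kinetochore motor, and Knstrn, a spindle and kinetochore adaptor, gave -0.40 ± 0.12 and -0.39 ± 0.10. Cenpa, the histone variant that marks centromeres, read 41.0, 42.9, 41.1 and 40.7 CPM with vehicle and 30.3, 35.3, 48.8 and 24.6 CPM with OPE. Its OPE libraries thus lay on both sides of the narrow vehicle range.

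Among the 6 spindle microtubule proteins, Hmmr passed (5 lower at an unadjusted p under 0.05, 4 with DESeq2). Prc1, which bundles the midzone, gave -0.59 ± 0.12 (adjusted p = 0.0522), with 39.2 to 40.8 CPM against 22.3 to 30.9 CPM. Tpx2, which activates Aurora A, read 59.2 to 66.1 against 39.9 to 52.0 CPM (-0.46 ± 0.10, adjusted p = 0.0686). Aspm and Dlgap5, proteins of the spindle poles and fibres, gave -0.48 ± 0.14 and -0.42 ± 0.11 and were separate between groups. Ckap2 was not, at -0.20 (95% interval -0.49 to 0.08), with OPE 3 at 24.7 CPM and the other OPE libraries at 18.3 to 20.5 CPM.

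**Figure D3:**
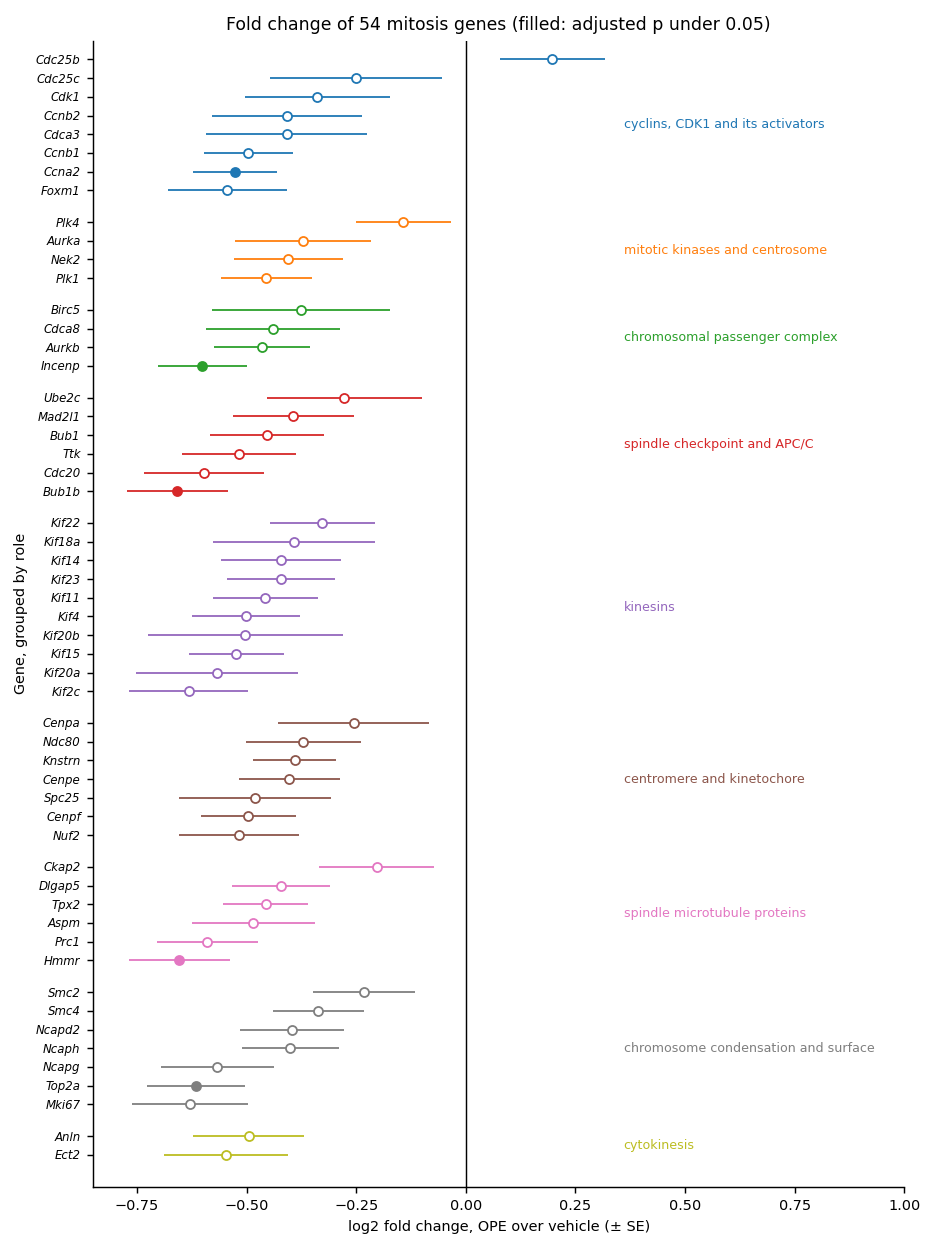
Log2 fold change (x axis, OPE over vehicle, ± SE) of the 54 genes grouped by role (y axis). Filled points passed an adjusted p of 0.05, namely Ccna2, Incenp, Bub1b, Hmmr and Top2a, and Cdc25b at 0.20 is the 1 point right of 0.

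Of the 7 chromosome genes, Top2a passed (6 lower at an unadjusted p under 0.05, 4 with DESeq2). Mki67, the Ki-67 antigen that coats mitotic chromosomes and marks cycling cells, read 166, 136, 132 and 125 CPM with vehicle and 80.4, 108, 75.3 and 96.7 CPM with OPE. Its groups were separate and its log2 fold change was -0.63 ± 0.13, with an adjusted p of 0.0658. The condensin I subunits Ncapg, Ncaph and Ncapd2 gave -0.57 ± 0.13, -0.40 ± 0.11 and -0.40 ± 0.12 and were each separate between groups. Of the SMC subunits, shared by both condensins, Smc4 gave -0.34 ± 0.10 and Smc2 gave -0.23 ± 0.12, and the groups of Smc2 overlapped. Lcorl overlaps Ncapg on the other strand with 120.3% of its reads. The cytokinesis genes Ect2 and Anln, which set up the contractile ring, gave -0.55 ± 0.14 and -0.50 ± 0.13 (adjusted p = 0.12 and 0.115), and Anln read 23.9 to 25.1 CPM in all OPE libraries.

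In the file's annotation 7 further genes overlap a gene on the other strand, beside those named with their values. The overlap was 53 bases for Cdc20 with Elovl1, 832 for Kif4 with Pdzd11, 11 for Kif18a with Mettl15 and 2264 for Cdca8 with 9930104L06Rik. The reads of these overlapping genes came to 119.6%, 135.2%, 43.6% and 86.1% of those of the mitosis gene. The overlap was 1656 bases for Cdc25c with Gm3550, 4249 for Knstrn with Gm14091 and 1889 for Prc1 with 6330403N20Rik. There the reads came to 9.94%, 3.55% and 0.26% of those of the mitosis gene. Foxm1 overlaps 4933413G19Rik on the same strand, with 0.585% of its reads. These counts are uncertain to that extent. A processed pseudogene also shares sequence with Cdc20. In a search of both strands, transcripts of Tnnc2 shared about 420 bases with Ube2c, and those of Rccd1 about 640 with Prc1. The counts of Ube2c and Prc1 are thus uncertain too.

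The genes that lay within or above the vehicle range in OPE 3 were mostly shorter than the median, and 8 were among the 18 shortest. There were 13 genes for which OPE 3 was not below all vehicle libraries, 12 of them shorter than the median of the 54 (3422 bases), and for 9 of the 13 the other OPE libraries were all below the vehicle range. The 18 shortest genes (1354 to 2842 bases) had a median of -0.17 in OPE 3, and the 18 longest (4365 to 11137 bases) had -0.52. In OPE 1 the order was the other way, with -0.69 and -0.58, and in OPE 4 as well, with -0.52 and -0.39. The rank correlation of deviation with length across the 54 genes was -0.61 in OPE 3 and 0.297, -0.196 and 0.348 in OPE 1, 2 and 4. Vehicle libraries, around their own mean, gave 0.623, -0.512, -0.22 and -0.431, so a relation with length was not particular to OPE 3.

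**Figure D4:**
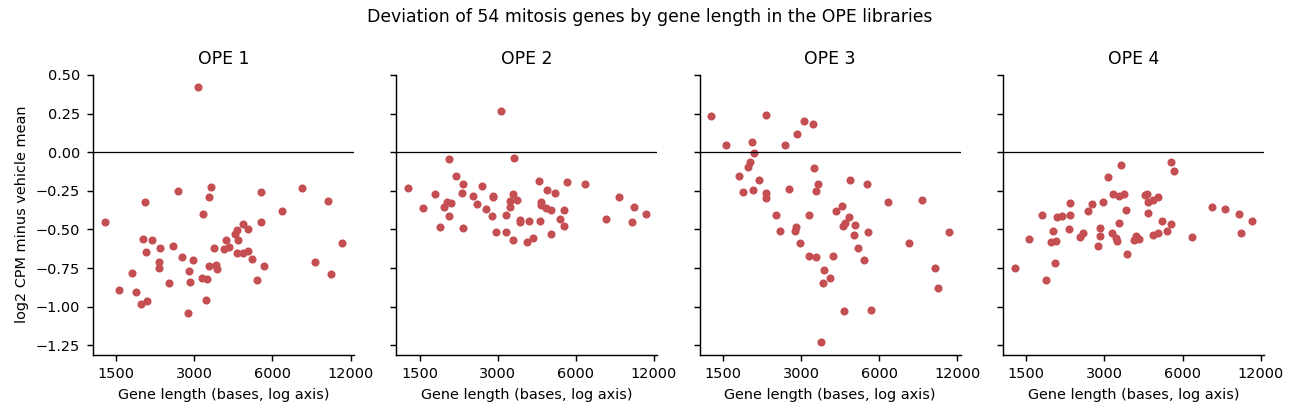
Log2 CPM minus the vehicle mean (y axis) of each of the 54 genes against gene length in bases (x axis, log scale) in OPE 1 to 4. In OPE 3 the points run from about the vehicle mean for short genes to well below it for long ones, with a rank correlation of -0.61.

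With each library's trend on gene length removed, the medians were -0.60, -0.31, -0.26 and -0.43 in OPE 1 to 4, and the correlation with length in OPE 3 was 0.0131. That fit passed 17 of the 54 genes as lower and none as higher, against 1.1% of all genes tested passing as lower. Separate groups, with OPE lower, were seen in 35 of the 54 and in 4.6% of all genes tested. The 17 included Ccnb1, Foxm1, Plk1, Aurkb, Cdc20, Kif2c and Mki67 beside the 5 named above.

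Mitosis genes outside the 54 were mostly lower too. Of 74 further genes listed for centromere, spindle and mitotic control, 69 were below 0 with a median of -0.32, and 1 passed as lower. At an unadjusted p under 0.05, 31 were lower (7.31% of all genes tested), and DESeq2 passed 13 (2.31% of all genes tested). The 1 gene that passed with edgeR was Mybl2, the B-MYB factor that activates mitotic promoters with the MuvB complex. It read 18.9, 23.0, 22.8 and 22.2 CPM with vehicle and 11.3, 14.5, 11.1 and 14.5 CPM with OPE, a log2 fold change of -0.76 ± 0.13 (adjusted p = 0.0388). Every OPE library was below every vehicle library.

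Of 40 S phase genes tested, 39 were below 0, with a median of -0.35, and none passed. At an unadjusted p under 0.05, 26 were lower and DESeq2 passed 7, to be read against the same 7.31% and 2.31% of all genes tested. Relative to the vehicle mean the S phase median was -0.74, -0.29, -0.16 and -0.30 in OPE 1 to 4. OPE 1 was thus the lowest library for S phase as for mitosis, where the medians were -0.64, -0.35, -0.39 and -0.45. The S phase genes of smallest p were Rrm2, of deoxynucleotide supply, at -0.68 ± 0.17, and Uhrf1, which maintains DNA methylation, at -0.61 ± 0.15 (adjusted p = 0.104 and 0.107).

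Other regulators of the cycle had list medians near 0. The 12 G1 cyclins, kinases and E2F genes had a median of -0.05, and none passed. Lower with an unadjusted p under 0.05 were 3 (7.31% of all genes tested), and DESeq2 passed 1 as lower (2.31%). The smallest p were those of Ccne2, cyclin E2, at -0.77 ± 0.20 (adjusted p = 0.114), and of E2f2 at -0.56 ± 0.22 (adjusted p = 0.29). The 14 subunits of the anaphase-promoting complex had a median of 0.06 and the 11 of DREAM and MuvB one of 0.02, and none passed in either list. At an unadjusted p under 0.05 there was 1 of the former, Anapc16 at 0.28 ± 0.12, and none of the latter, and DESeq2 passed none. Of all 15517 genes tested, 908 were higher at that unadjusted threshold. The next smallest p in the complex was that of Cdc16 at 0.16 ± 0.08, and in DREAM and MuvB those of Rbl1 at -0.23 ± 0.16 and Tfdp2 at -0.19 ± 0.15. Of 13 CDK inhibitors and antiproliferative genes tested, none passed, at an unadjusted p under 0.05 or with DESeq2, and the median was 0.12. Cdkn1a, which encodes the p53-induced inhibitor p21, read 115.6 to 125.5 CPM with vehicle and 105, 93.5, 120.1 and 99.2 CPM with OPE (-0.20 ± 0.09, adjusted p = 0.402). Ccng1, cyclin G1, another p53 target, gave 0.24 ± 0.11 (adjusted p = 0.405).

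**Figure D5:**
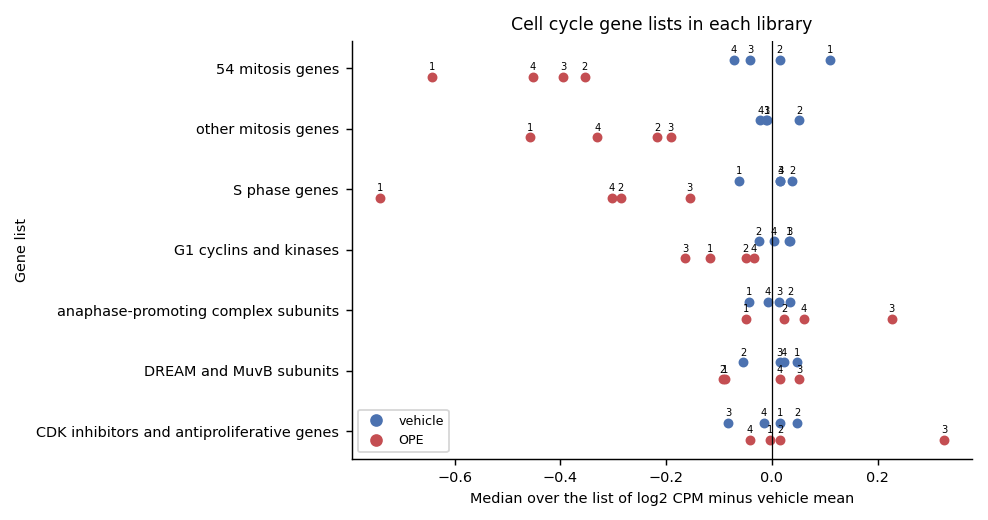
Median over each cell cycle list of log2 CPM minus the vehicle mean (x axis) in each library (points, numbered by replicate, vehicle in blue and OPE in red). The 54 mitosis genes, the 74 further mitosis genes and the S phase genes have all 4 OPE libraries below the vehicle libraries, with OPE 1 the lowest in each; the G1 list is also separate, with a median near 0.

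Lists of markers of other cells in the bud differed from each other, and the macrophage list had the lowest median. The 18 macrophage markers summed to 225 to 267 CPM with vehicle and 47.5, 85.4, 121 and 111 CPM in OPE 1 to 4. None had 0 reads in all libraries. All 18 were below 0 (47.2% of all genes tested), and 8 passed as lower (0.438% of all genes tested). At an unadjusted p under 0.05, 17 were lower (7.31% of all genes tested), and DESeq2 passed 11 (2.31% of all genes tested). The lowest p was that of Csf1r, the receptor macrophages need to survive, at 18.9 to 25.6 CPM with vehicle and 2.21 to 5.93 CPM with OPE (-2.50 ± 0.24, adjusted p = 0.00369). Cx3cr1, Spi1 and Laptm5 fell as well, by 2.76, 1.23 and 1.07 on the log2 scale (adjusted p = 0.0158, 0.0209 and 0.0222). The 12 endothelial markers summed to 405 to 469 CPM with vehicle and 255, 328, 326 and 368 CPM with OPE, and none was without reads. Their median was -0.40, with 10 below 0 and 1 that passed as lower, Flt1. At an unadjusted p under 0.05, 6 were lower, and DESeq2 passed 3, to be read against the same shares. The part of these cells in the levels of the mitosis genes was not tested. The 10 chondrocyte markers had a median of -0.07 and the 10 limb mesenchyme markers one of 0.12, and none of either passed, with edgeR or DESeq2. At an unadjusted p under 0.05 there were none of the former and 2 of the latter, both higher, Hoxd12 at 0.28 ± 0.10 and Hoxd13 at 0.24 ± 0.10. Higher at that threshold were 908 of all 15517 genes tested. Of the chondrocyte markers Matn1 and Col11a1 had the smallest p, at -0.32 ± 0.16 and -0.25 ± 0.14. Their sums overlapped between groups, at 9116 to 10998 CPM with vehicle against 9012 to 10238 CPM with OPE for cartilage. Among 10 skeletal muscle markers none passed. Lower with an unadjusted p under 0.05 were 2 (7.31% of all genes tested), and DESeq2 passed 2 as lower (2.31%). Pax7, of muscle progenitors, read 15.8 to 21.2 CPM with vehicle and 9.50 to 17.3 CPM with OPE (-0.65 ± 0.19, adjusted p = 0.169). Myh3, embryonic myosin, gave -0.38 ± 0.12 (adjusted p = 0.194). Of 7 erythroid and 10 ectoderm markers tested, none passed with edgeR or DESeq2 or at an unadjusted p under 0.05. The erythroid median was 0.15, with 1 gene below 0, and the ectoderm median was -0.38, with 8 below 0. The smallest p in these lists were those of Alas2 (-0.38 ± 0.18) and Hbb-y (0.34 ± 0.23) and of Krt5 (-0.87 ± 0.40) and Trp63 (-0.33 ± 0.16). The erythroid markers summed to 2635 CPM in OPE 3 and 996 to 1476 CPM in the other libraries.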

How the data were processed

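Per the labels' protocols, poly-A RNA of cultured forelimb buds was fragmented and primed with random hexamers. CASAVA 1.8, STAR 2.5, HTSeq 0.6.1, DESeq2 (version given as 2) and the build mm10 are listed, per the submitters' processing notes. The annotation release and the strand setting were not stated there, so genes that overlap on opposite strands are uncertain. Per the file headers, the authors deposited 1 table with raw read counts, counts divided by a size factor (signal), FPKM, a log2 fold change, and p-values. The signal was checked to be the counts over 1 constant per library and was not used for a test. FPKM was used for levels between genes.

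The main test on the deposited counts was the two-sided quasi-likelihood test of edgeR 4.0.16 (R 4.3.3), robust, with group as the single term, after filterByExpr and TMM scaling, with Benjamini-Hochberg adjustment over 15517 genes. SE is the log2 fold change over the square root of F. CPM uses TMM-scaled totals, and log2 CPM a prior count of 2. The script was tested on simulated counts. Every pair of libraries within a group differed by more than sampling noise, with a chi-square of 5.03 or more for each degree of freedom. Alternatives used other scaling, filters, DESeq2 1.42.0, limma 3.58.1 (voom), offsets from a spline of gene length with 4 degrees of freedom, the replicate block, and fewer libraries. The 54 genes, the other lists and the tests were chosen with earlier results of these data known, and no p was adjusted over a list alone. All 54 genes are named, and from each other list up to 4 genes of smallest p that passed the threshold, or the 2 of smallest p where none passed.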

Additional observations from a re-analysis of the deposited data

Results flagged for a closer look

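Within the groups of 4 libraries, the highest or lowest library lay far from the rest in 6 of 108 groups tested over the 54 genes, measured as the gap to the nearest library over the whole range of log2 CPM. Chance flags about 1 in 20 groups. Vehicle 1 was the far library for Ttk (0.968, 17.0 CPM against 15.0 in the others), Cenpf (0.946, 51.9 CPM against 40.3 to 40.9), Aspm (0.926, 38.8 CPM against 27.9 to 28.6) and Kif11 (0.878, 50.4 CPM against 36.9 to 38.3). In each of these vehicle 1 was the highest. For Spc25 vehicle 4 was the lowest (0.917, 17.8 CPM against 21.2 to 21.5), and for Cenpa vehicle 2 was the highest (0.83, 42.9 CPM against 40.7 to 41.1).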

How the results depend on the processing

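Under all 18 alternatives 53 of the 54 genes were below 0 and Cdc25b above it, no gene changed direction, and the median log2 fold change lay between -0.51 and -0.40. Between 35 and 46 genes had separate groups, while the share over all genes tested ran from 4.53% to 10.5% (8.6% and 10.5% where it was 46). The counts that passed moved. Over all genes tested the count was 74 and became 131 with library totals, 136 with no filter, 536 with DESeq2 and 321 with the gene-length trend removed. Over the 54 genes the count was 5 and became 14, 8, 27 and 17 under the same settings. It was 2 without both OPE 1 and OPE 3. Leaving out 1 library gave 7 to 308 over all genes and 0 to 27 over the 54. With the replicate number as a block (replicate block) 0 of the 54 passed with edgeR (47 at an unadjusted p under 0.05) and 62 over all genes. Same-numbered libraries deviated together with correlations of 0.309, 0.0818, 0.0126 and 0.0918, so the numbers were not taken to pair them. OPE 1 and OPE 2 correlated best with their own numbers, OPE 3 and OPE 4 did not. The causes of these shifts were not tested. A fit with fewer libraries is also a smaller test, and such counts moved both ways. Of the 54, 27 passed without OPE 3 and 7 without OPE 4. With the DESeq2 size factors, a filter of 1 CPM, a fit that was not robust and limma-voom the count over the 54 was 5, 5, 5 and 6. With 4 libraries a group, single genes changed by about this much pass or miss the threshold by the choice of libraries, scaling, model and test.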
